A study of Homo sapiens with 39 samples.

Results

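The genes described here form the endoplasmic reticulum (ER) folding and stress module: 34 genes for lumenal chaperones, disulfide isomerases, stress sensors and their transcription factors, ER-associated degradation, the translocon and the vesicle coat that carries cargo out of the ER. They were chosen by name, as the rows whose gene name equals a listed member, and all 34 were found among the 45446 rows of each of the 13 tables. RNA-seq was measured in 39 libraries of HCT116, a human colorectal cancer cell line, in 13 groups of 3. Controls were the parental Flp-In T-REx host cells, without any inserted HNF4A. The remaining groups were 12 stable lines, each holding a single inserted copy of 1 isoform (1 to 12) of hepatocyte nuclear factor 4 alpha (HNF4A), a nuclear receptor of liver and gut, with GFP fused at its C-terminal end and expression switched on by doxycycline. Cells of every group, parental cells included, received 2.5 µg/ml doxycycline for 48 h in medium without selection antibiotics. Before induction all were maintained in blasticidin, the parental cells together with zeocin and the lines together with hygromycin B. No group expressed GFP alone and each isoform is 1 line, so GFP, the earlier antibiotics and the derivation of a line cannot be told apart from the isoform. The labels do not say that the 3 libraries of a group came from separate cultures, so p-values measure only the spread between these libraries.

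Proteins that enter the secretory pathway fold in the ER with the help of chaperones and of enzymes that form disulfide bonds, and proteins that fail to fold are returned to the cytosol and degraded. When unfolded proteins build up, the membrane sensors IRE1 (gene ERN1), ATF6 and PERK start the unfolded protein response. IRE1 splices the XBP1 mRNA, and spliced XBP1 and cleaved ATF6 raise the transcription of chaperone and degradation genes through ER stress response elements in their promoters. In liver and intestine, cells that secrete heavily keep this machinery high, and the ATF6-like factor CREB3L3 (CREBH) is known mainly from these tissues.

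The promoter sequences below show the elements through which the module is known to be switched on, and serve to identify which members carry them. Of the 34 members, 29 had an entry in the RefSeq promoter table (GRCh38.p14), and the 250 bases before each start site were searched on both strands. ARF4, PDIA3, SEC24D, DERL3 and DERL1 had none. The ER stress response element, CCAAT and CCACG with 9 bases of any kind between them, was found in 7 members, 24.1% of those searched, against 0.0916% of 27305 genes. Its shorter form ERSE-II, ATTGG and CCACG with 1 base between them, was found in 3 members (10.3%), against 0.0659% of genes. Each line gives the match in capitals with 5 bases on either side, on the strand of the gene, so that a match on the opposite strand reads as its complement.
HSPA5, chr9:125241386-125241414, minus strand: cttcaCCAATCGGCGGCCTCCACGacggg
HSP90B1, first of a pair, chr12:103930211-103930239, plus strand: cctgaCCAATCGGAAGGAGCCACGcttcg
HSP90B1, the other of the pair, chr12:103930316-103930344, plus strand: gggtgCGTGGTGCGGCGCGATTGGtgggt
CALR, chr19:12938379-12938407, plus strand: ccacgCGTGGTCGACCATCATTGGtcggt
PDIA6, chr2:10812848-10812876, minus strand: ccggaCCAATGAGCCGCAGCCACGgcttg
XBP1, chr22:28800598-28800626, minus strand: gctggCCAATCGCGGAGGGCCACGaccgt
HYOU1, ERSE-II, the nearer of a pair, chr11:119057269-119057289, minus strand: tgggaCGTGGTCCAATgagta
HERPUD1, ERSE-II, chr16:56932020-56932040, plus strand: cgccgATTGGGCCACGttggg
SDF2L1, ERSE-II, chr22:21642109-21642129, plus strand: ggaagCGTGGACCAATcaaaa
CANX and CRELD2 held the long form as well. The match lay 66 bases before the start site in HSPA5, which encodes the chaperone BiP, 52 in XBP1 and 80 in CRELD2. The whole HSPA5 stretch, chr9:125241344-125241593 on the minus strand, reads as follows, with the exact match in capitals.
HSPA5: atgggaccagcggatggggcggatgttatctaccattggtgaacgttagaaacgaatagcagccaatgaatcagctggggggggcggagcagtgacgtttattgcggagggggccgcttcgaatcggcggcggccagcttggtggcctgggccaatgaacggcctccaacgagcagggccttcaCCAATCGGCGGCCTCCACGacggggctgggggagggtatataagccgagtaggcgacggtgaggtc

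A consensus for HNF4 binding, CAAAGTCCA, was in no member's 250 bases and in 0.403% of genes, and the looser form CAAAGNNCA was in no member and in 5.43% of genes. The CREB3L3 stretch is shown because this member differed most between groups. It ran from chr19:4153381 to 4153600 on the plus strand, up to the annotated gene at chr19:4153601-4173054. It holds CAAAGGTC, found in 0.992% of genes, on the opposite strand (capitals); that motif was searched for after the sequence had been seen.
CREB3L3: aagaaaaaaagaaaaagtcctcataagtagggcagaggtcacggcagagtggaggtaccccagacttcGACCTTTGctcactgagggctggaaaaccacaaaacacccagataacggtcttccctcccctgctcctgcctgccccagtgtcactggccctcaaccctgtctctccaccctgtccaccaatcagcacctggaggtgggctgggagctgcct
These matches describe letters in a window and were not tested as binding sites.

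Values below are TPM, a transcript level scaled for transcript length and to 1 total per library, and fold changes are differences on the log2(TPM + 1) scale, which understates the change of low genes. HNF4A itself was at 31.5 ± 0.589 TPM (SD, n = 3) in parental cells and at group means of 613.5 to 1071 TPM in the lines. Within isoform 3, replicate 1 stood apart with 406.95 TPM of HNF4A against 833.5 and 771.8 TPM. Colorectal epithelial markers were high in every group (EPCAM 438.4 to 594.8 TPM, KRT8 1043 to 2396 TPM). DCN, LUM, PTPRC, CD3E, CDH5 and JCHAIN, which mark fibroblasts, leukocytes, endothelium and plasma cells, had group means of at most 0.124 TPM. Of the other markers on those lists, CD68 was at 3.85 TPM in parental cells and at 33.05 TPM in the highest group, COL1A1 lay between 8.91 and 12.96 TPM and PECAM1 between 1.46 and 5.75 TPM, and their part in the results was not tested. In bulk RNA, fewer cells making a transcript and less transcript per cell cannot be told apart.

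Module members changed by small amounts in both directions in most lines, and CREB3L3 was the only member to pass a 2-fold threshold in any line. Of the 34 members, 33 had a mean of at least 1 TPM and were tested among 15003 genes with limma, calling a gene at a Benjamini-Hochberg adjusted p under 0.05. DERL3, a derlin of ER-associated degradation, reached at most 0.218 TPM in any library and was not tested. CREB3L3 passed this filter only through the lines where it was high. Shares of all 15003 genes called are given in brackets. In isoform 1, 24 members were called (58.5%), 10 of them higher (19.8%) and 14 lower (38.7%). In isoform 2 there were 23 (55.3%), 9 higher (19.7%) and 14 lower (35.6%). Isoform 3 gave 11 (26%), 3 higher (11.2%) and 8 lower (14.7%). Isoforms 4 to 6 gave few, as did isoform 12. Isoform 4 had 5 (16.3%), 1 higher (6.26%) and 4 lower (10.1%). For isoform 5 the count was 3 (14.8%), 2 higher (9.57%) and 1 lower (5.22%). For isoform 6 it was 2 (10.1%), 1 higher (5.94%) and 1 lower (4.13%). On this scale most called members of isoforms 7, 9 and 11 were lower, as in isoforms 1 to 4. Isoform 7 gave 20 (39.6%), 3 higher (13.4%) and 17 lower (26.2%). Isoform 9 gave 11 (22.7%), 1 higher (10.9%) and 10 lower (11.8%), and isoform 11 gave 16 (38.5%), 4 higher (14.5%) and 12 lower (24%). Isoforms 8, 10 and 12 leaned the other way, as isoform 5 did on few calls. Isoform 8 gave 11 (34.4%), 8 higher (16.9%) and 3 lower (17.5%). Isoform 10 gave 14 (37.3%), 12 higher (17%) and 2 lower (20.4%), and isoform 12 gave 4 (14.6%), all higher (7.92%, with 6.65% of all genes lower). The 2-fold threshold, an adjusted p under 0.05 with a log2 fold change of at least 1 in size, was passed by CREB3L3 alone in isoforms 1, 2, 3, 7, 8, 10 and 11, where 4.52%, 3.73%, 0.807%, 2.08%, 1.41%, 1.44% and 1.7% of all genes passed it. On this scale no member passed it in isoforms 4, 5, 6, 9 and 12, where 0.54%, 0.293%, 0.247%, 0.827% and 0.573% of genes did. As a share of the 33 members, called members ran from 6.06% in isoform 6 to 72.7% in isoform 1. Direction was uneven, in that members called lower made up 51.5% in isoform 7 (26.2% of all genes) and 30.3% in isoform 9 (11.8%), and members called higher made up 36.4% in isoform 10 (17% of all genes).

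**Figure D1:**
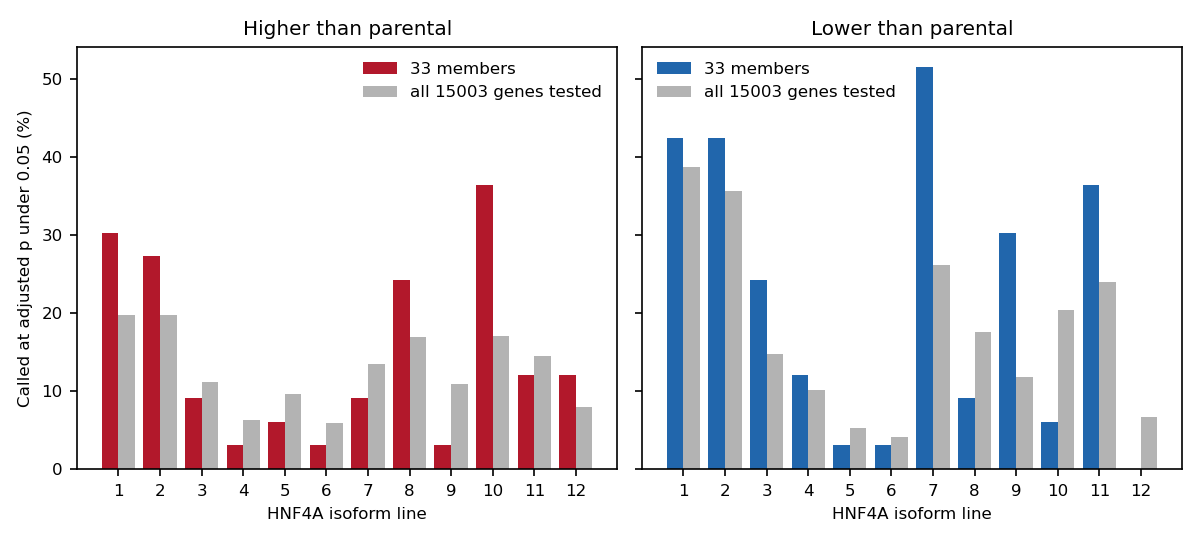
Bars give the percentage called higher (left) or lower (right) than parental cells in each isoform line, on the vertical axis, for the 33 tested members (coloured) and for all 15003 genes (grey), at an adjusted p under 0.05. Members called lower reach 51.5% in isoform 7 against 26.2% of all genes, and members called higher reach 36.4% in isoform 10 against 17%.

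The median log2 fold change of the 33 members was -0.15 in isoform 7, against -0.06 for all genes, and 0.13 in isoform 10, against -0.02. In isoform 1 it was -0.08 against -0.11 for all genes. The split between higher and lower depends on the scale. Dividing each library by a median-of-ratios factor raised the median of all genes in isoform 1 by 0.10, and the members then split 13 higher and 10 lower there, with 30% of all genes higher and 28.1% lower on the same scale. Isoform 2 gave 12 higher and 8 lower (28.3% and 26.7% of all genes) and isoform 3 gave 6 and 6 (16.3% and 12.3%). Isoform 7 gave 6 and 15 (21.6% and 20%) and isoform 11 gave 8 and 9 (22.1% and 19.3%). In isoform 4 the split was 2 and 3 (11.8% and 7.6%), in isoform 5 it was 4 and 1 (10% and 7.05%), in isoform 6 it was 3 and 1 (7.67% and 4.61%) and in isoform 12 it was 4 and 2 (10.4% and 7.31%). Isoform 8 gave 9 and 3 (19.9% and 17.6%), isoform 9 gave 1 and 10 (14.2% and 11.8%) and isoform 10 gave 15 and 2 (21.2% and 19.3%). The authors' deposited table gave 13 higher and 7 lower in isoform 1 and 14 and 6 in isoform 2. In that table isoform 3 gave 8 and 6 and isoform 11 gave 10 and 7. Isoform 7 gave 7 and 12 there, isoform 9 gave 3 and 6 and isoform 4 gave 2 and 3. Its splits were 7 and 2 in isoform 5, 4 and 1 in isoform 6 and 12 and 2 in isoform 8. For isoforms 10 and 12 they were 18 and 2, and 7 and 0. Shares of all genes called in that table were not computed. Some counts rest on single libraries. In isoform 3 the count fell to 6 without parental replicate 2 and to 7 without isoform 3 replicate 2. In isoform 4 it fell to 3 without parental replicate 1, and to 2 without parental replicate 3 or without either of a pair of its own libraries. In isoform 6 it rose to 4 without its replicate 1. In isoform 8 it fell to 7 without parental replicate 1, to 6 without parental replicate 3 and to 7 without isoform 8 replicate 2. In isoform 9 it fell to 7 without parental replicate 2. Calls that held whichever library was left out numbered, for isoforms 1 to 12 in order, 20, 17, 5, 1, 2, 1, 19, 4, 7, 9, 9 and 3. Shares of all genes in the fits without 1 library were not computed. Whether members were more or less stable than other genes was therefore not tested. All 12 comparisons share the same 3 parental libraries, so a member called in many lines is not that many independent results.

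**Figure D2:**
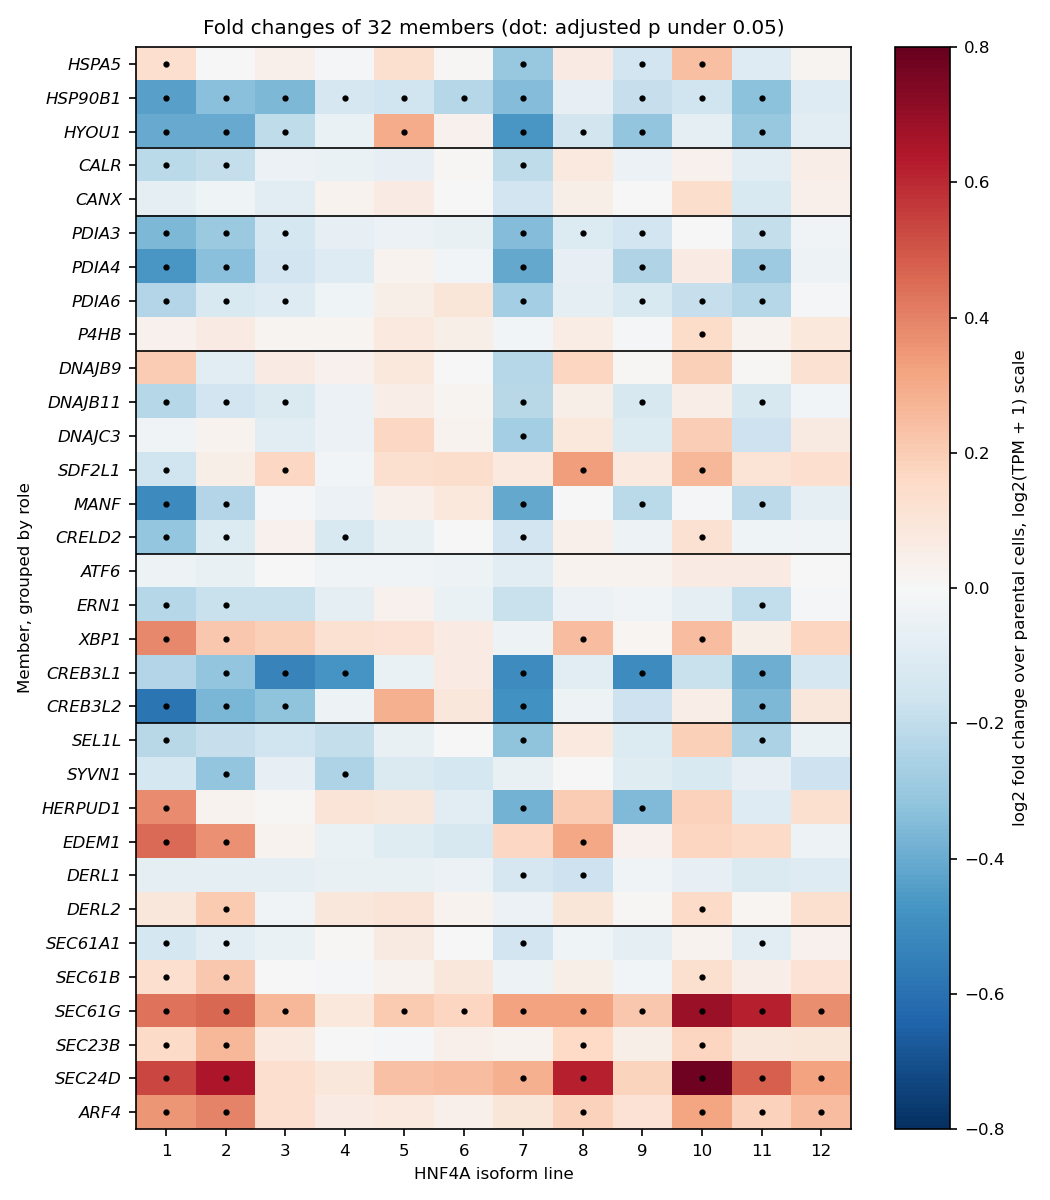
Colour gives the log2 fold change over parental cells (red higher, blue lower) of 32 members, in rows grouped by role, in the 12 isoform lines, in columns, and dots mark an adjusted p under 0.05; CREB3L3 is left out because its change reaches 5.00. SEC61G and SEC24D are red in most lines, reaching 0.69 and 0.78 in isoform 10, and HSP90B1, PDIA4 and MANF are blue in isoforms 1 and 7.

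Differences among the 12 lines were tested directly with limma's F test. Its contrasts left out the parental mean, while the parental libraries still entered the estimate of spread. Such differences were called for 30 of the 33 members (77.4% of all genes were called). The 3 members not called were ATF6 (adjusted p = 0.508), DERL1 (0.305) and DNAJB9, an ER J-domain co-chaperone (0.179).

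CREB3L3, the membrane-bound factor of liver and intestine, was nearly absent from parental cells and rose in 9 of the 12 lines. Its parental libraries were at 0.251, 0.182 and 0.198 TPM. Isoform 1 libraries were at 43.3, 36.6 and 33.8 TPM and isoform 2 libraries at 36.8, 41.7 and 32.02 TPM, so the groups were far apart. Isoform 3 libraries were at 2.43, 6.36 and 4.78 TPM, and the lowest of them was the replicate with the low HNF4A level. The middle of the range held isoform 7 (3.78, 3.80 and 3.37 TPM), isoform 8 (4.40, 3.66 and 4.17 TPM), isoform 10 (3.43, 4.21 and 3.47 TPM) and isoform 11 (3.61, 3.49 and 3.04 TPM). These ranges overlapped, except that all isoform 8 libraries lay above all isoform 11 libraries. Isoform 12 followed with 1.43, 1.082 and 1.03 TPM and isoform 4 with 1.083, 0.789 and 0.579 TPM. Isoform 9 (0.427, 0.532 and 0.614 TPM), isoform 5 (0.419, 0.527 and 0.304 TPM) and isoform 6 (0.327, 0.242 and 0.161 TPM) were lowest, and of these only isoform 6 overlapped the parental libraries.

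On the log2(TPM + 1) scale CREB3L3 rose by 5.00 ± 0.16 (SE) with isoform 1 (limma adjusted p = 3.54e-21) and by 4.96 ± 0.16 in isoform 2 (4.58e-21). For isoforms 3, 7, 8, 10 and 11 the increase was 2.12, 1.94, 2.07, 1.95 and 1.85, with an SE of 0.16 for each. Smaller increases of 0.85 in isoform 12 (adjusted p = 0.000307) and 0.58 in isoform 4 (adjusted p = 0.0110) passed the test without reaching 2-fold on this scale. The isoform 4 call was lost without 1 of its own libraries (adjusted p = 0.0729). Without isoform 3 replicate 1 the isoform 3 change was 2.43, and 12 members were called in that line. Isoforms 9, 5 and 6, at 0.33, 0.22 and 0.04, did not pass. Fitting all 39252 genes above 0 in at least 1 library called the same 9 lines for CREB3L3. In the authors' deposited table the log2 fold change of CREB3L3 was 7.14 in isoform 1 and 6.99 in isoform 2, and isoform 9 was also called there (0.55, adjusted p = 0.00662). Isoform 12 passed the 2-fold threshold in that table (1.02, adjusted p = 1.94e-13).

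The related membrane-bound factors CREB3L1 and CREB3L2 were called lower in some lines and higher in none. Neither was called in isoforms 8, 10 and 12, where CREB3L3 rose. CREB3L1 was at 2.23, 2.74 and 2.56 TPM in parental cells and at 1.47, 1.57 and 1.40 TPM in isoform 7, where it fell by 0.50 (SE 0.12, adjusted p = 0.00143). It fell in 6 lines, with the lowest value, -0.54, in isoform 3, where replicate 3 was at 0.998 TPM and replicate 1 at 1.96 TPM. The isoform 2 call was lost without parental replicate 2 or 3 or isoform 2 replicate 1 or 2 (adjusted p up to 0.108), and the isoform 11 call without replicate 2 of either group (up to 0.0549). CREB3L2 was at 10.2, 11.0 and 12.6 TPM in parental cells and at 7.20, 7.09 and 7.15 TPM in isoform 1, with no overlap. It fell there by 0.59 (SE 0.11, adjusted p = 5.28e-05), and it fell in isoforms 2, 3, 7 and 11 as well, of which only isoform 7 held whichever library was left out. Without parental replicate 3 the calls in isoforms 2, 3 and 11 were all lost, with adjusted p up to 0.168 over the fits for isoform 3. In isoform 5, CREB3L2 libraries lay above all parental ones, at 14.6, 13.1 and 14.0 TPM, but the difference of 0.28 did not pass (adjusted p = 0.0951). The authors' deposited table called CREB3L2 higher in isoform 5, by 0.27.

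XBP1, the transcription factor made active by IRE1, was at 60.7, 67.6 and 65.3 TPM in parental cells and at 81.1, 82.4 and 90.1 TPM in isoform 1. It rose there by 0.38 (SE 0.09, adjusted p = 0.000383). It was also called higher in isoforms 2, 8 and 10, by 0.22, 0.25 and 0.25, with adjusted p up to 0.147, 0.123 and 0.194 when 1 library was left out; all 3 calls were lost without parental replicate 1. The 3 calls were also lost with no filter, but they remained after median-of-ratios scaling, where isoform 3 joined them. The authors' deposited table called XBP1 higher in isoforms 1, 2, 3, 4, 8, 10 and 12. The XBP1 values are gene totals, so spliced and unspliced XBP1 were not separated. ERN1, the gene of IRE1, was at 3.95, 4.48 and 4.51 TPM in parental cells and at 3.46, 3.84 and 3.30 TPM in isoform 1, lower by 0.23 (adjusted p = 0.00770). Its calls in isoforms 1, 2 and 11 were all lost after median-of-ratios scaling. ATF6 lay between 19.9 and 26.2 TPM over the 39 libraries and was called in no line in the main fit. The authors' deposited table called it higher in isoform 11 (0.16).

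**Figure D3:**
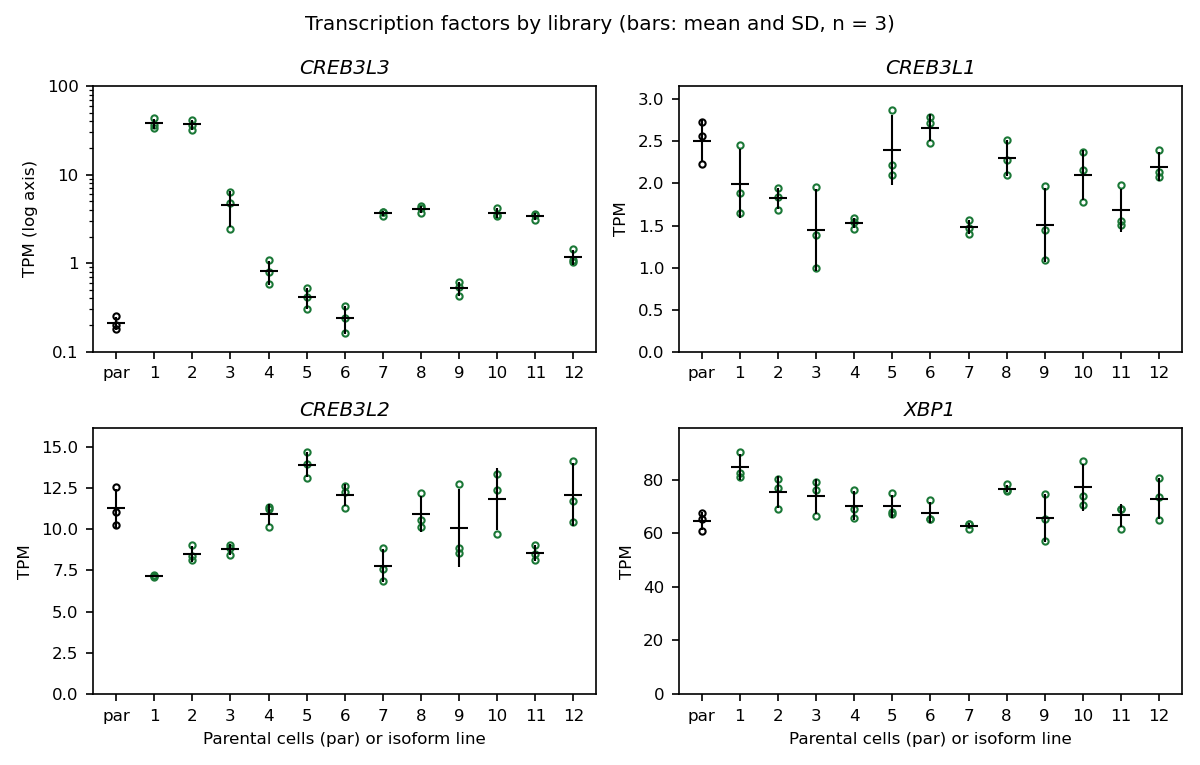
Points give TPM per library for CREB3L3 (log axis) and for CREB3L1, CREB3L2 and XBP1 (linear axes from 0) in parental cells (par) and isoform lines 1 to 12, with bars for the mean and SD of 3 libraries. CREB3L3 lies near 40 TPM only in isoforms 1 and 2, with group means of 37.9 and 36.8 TPM, while CREB3L2 is lowest in isoform 1 at 7.15 TPM.

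Among the lumenal chaperones, HSP90B1 (GRP94), the most abundant of its role, fell most widely. Parental libraries were at 659.8, 718.0 and 728.6 TPM, isoform 1 at 498.1, 546.0 and 516.8 TPM and isoform 7 at 546.2, 552.4 and 559.2 TPM. All libraries of both lines lay below the parental ones. The fold change was -0.43 (SE 0.04, adjusted p = 9.77e-10) in isoform 1 and -0.34 (adjusted p = 2.08e-07) in isoform 7, a fall by 25.9% and 21.3% in mean TPM. HSP90B1 fell in 10 lines, all but isoforms 8 and 12, and the calls in isoforms 4 and 5 were lost without parental replicate 2 or 3 or either of a pair of their own libraries (adjusted p up to 0.176 and 0.0880). After median-of-ratios scaling all 10 remained and isoform 12 joined them.

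HSPA5 (BiP), the HSP70 of the ER lumen that also holds the stress sensors inactive, did not follow HSP90B1. Its parental libraries were at 433.9, 452.8 and 454.6 TPM. Isoform 7 libraries, at 357.4, 367.2 and 363.8 TPM, were all lower (-0.30, SE 0.05, adjusted p = 1.07e-05), and isoform 10 libraries, at 535.4, 499.2 and 548.9 TPM, were all higher (0.24, adjusted p = 0.000286). In isoform 1 the libraries were at 499.0, 475.5 and 500.8 TPM, higher by 0.14 (adjusted p = 0.0177), a call lost without parental replicate 1 or isoform 1 replicate 1 or 3 (adjusted p up to 0.0774). In isoform 9 they were at 366.9, 403.6 and 437.6 TPM, overlapping the parental range, and the fall of 0.15 was lost without parental replicate 2 or 3 or isoform 9 replicate 1 or 2 (up to 0.189). After median-of-ratios scaling HSPA5 was called higher in isoforms 1 (by 0.25), 2, 5 and 10 and lower in isoforms 7 and 9. In the authors' deposited table it was higher in isoforms 1 (by 0.28), 2, 3, 5, 8 and 10 and lower only in isoform 7. HYOU1 (GRP170), which exchanges the nucleotide of BiP, was at 161.3, 163.8 and 164.3 TPM in parental cells. It fell to 116.1, 119.3 and 118.3 TPM in isoform 7 (-0.47, SE 0.05, adjusted p = 6.30e-09) and rose to 210.3, 194.3 and 196.8 TPM in isoform 5 (0.29, adjusted p = 8.99e-05). In all it fell in 7 lines, among them isoforms 1 and 2 by 0.40 and 0.41, and rose in 1, under both scalings; the isoform 8 fall was lost without parental replicate 2 or 3 or isoform 8 replicate 2 (up to 0.0887).

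The lectin chaperones of glycoproteins changed little. CALR (calreticulin) was at 847.8, 896.7 and 883.1 TPM in parental cells and at 745.3, 757.1 and 759.9 TPM in isoform 1, lower by 0.22 (SE 0.04, adjusted p = 9.55e-05). It was also lower in isoforms 2 and 7, by 0.19 and 0.20. None of these 3 calls was made in the authors' deposited table, which called CALR lower in isoform 5 and higher in isoform 8. After median-of-ratios scaling the 3 calls remained and CALR was also called higher in isoform 8 (0.09). CANX (calnexin) had group means of 395.0 to 483.3 TPM and was called in no line in the main fit. It was called higher in isoform 10 after scaling (0.16). The authors' deposited table called CANX higher in isoforms 2 and 10 (0.09 and 0.18).

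Of the disulfide isomerases, PDIA3, PDIA4 and PDIA6 fell together in isoforms 1, 2, 3, 7, 9 and 11, and P4HB did not. PDIA4 was at 252.8, 257.9 and 255.6 TPM in parental cells and at 185.7, 184.9 and 182.4 TPM in isoform 1, a fall of 0.47 (SE 0.04, adjusted p = 4.87e-11). In isoform 7 it was at 195.0, 196.6 and 185.0 TPM, a fall of 0.41 (adjusted p = 2.37e-09). PDIA3 (ERp57), the partner of the lectin chaperones, fell by 0.36 in isoform 1 and 0.35 in isoform 7, and PDIA6 by 0.24 and 0.27. After median-of-ratios scaling the PDIA6 calls in isoforms 2 and 3 were lost, while PDIA3 and PDIA4 kept all of theirs. In isoform 3 the PDIA3 and PDIA6 calls were lost without parental replicate 2, and the PDIA4 and PDIA6 calls without isoform 3 replicate 2 (adjusted p up to 0.113). The PDIA6 call in isoform 9 was lost without parental replicate 2 or isoform 9 replicate 1 (0.106). In the authors' deposited table PDIA4 was called lower in the same 6 lines, PDIA3 only in isoforms 1, 2, 3 and 7, and PDIA6 only in isoforms 7, 10 and 11. P4HB (PDI), the most abundant isomerase, was at 623.4, 633.7 and 611.5 TPM in parental cells and was called only in isoform 10, at 707.7, 664.7 and 695.1 TPM (0.15, adjusted p = 0.00107). After scaling P4HB was also called higher in isoforms 1, 2 and 11.

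Among co-chaperones and secreted stress proteins, MANF, a secreted protein of the stress response, was at 227.0, 223.0 and 218.9 TPM in parental cells. It fell to 150.8, 158.4 and 159.7 TPM in isoform 1 (-0.51, SE 0.04, adjusted p = 9.92e-12) and to 170.1, 165.9 and 167.3 TPM in isoform 7 (-0.41, adjusted p = 2.96e-09). MANF also fell in isoforms 2, 9 and 11, by 0.21 to 0.23, and these 5 calls held whichever library was left out. In the authors' deposited table the isoform 2 and isoform 11 calls of MANF were lost (adjusted p = 0.0544 and 0.106). SDF2L1, a BiP partner, moved upwards instead. From 148.4, 146.6 and 148.6 TPM in parental cells it reached 187.5, 181.5 and 190.8 TPM in isoform 8 (0.33, SE 0.05, adjusted p = 8.00e-06) and 185.4, 172.7 and 176.1 TPM in isoform 10 (0.27, adjusted p = 0.000149). It also rose in isoform 3, a call lost without parental replicate 2 or isoform 3 replicate 1, and its fall of 0.16 in isoform 1 was lost after scaling. CRELD2 fell in isoforms 1, 2, 4 and 7, by 0.31 in isoform 1, and rose by 0.12 in isoform 10; after scaling only isoforms 1 and 10 remained, and the isoform 10 call was lost without parental replicate 2 or 3 or isoform 10 replicate 1 (adjusted p up to 0.150). DNAJB11, a BiP co-chaperone, fell in 6 lines by 0.12 to 0.23, of which isoforms 1, 7 and 9 remained after scaling and none was called in the authors' deposited table. DNAJC3 fell in isoform 7 by 0.27. After scaling it was also called higher in isoform 10 (0.22), and the authors' deposited table called it higher in isoforms 2, 5 and 10.

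**Figure D4:**
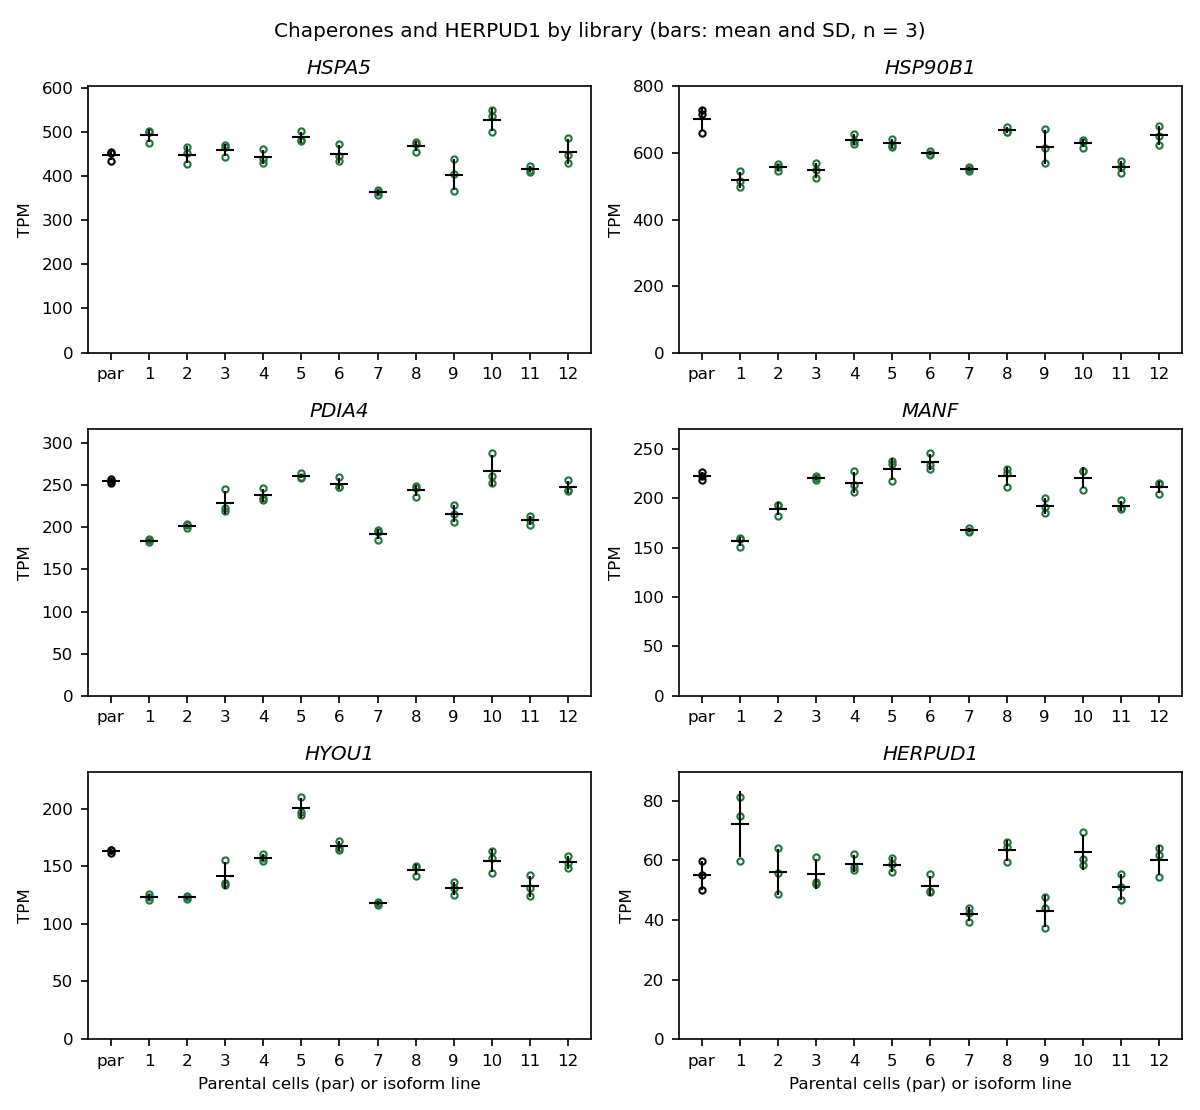
Points give TPM per library (vertical axes from 0) for HSPA5, HSP90B1, PDIA4, MANF, HYOU1 and HERPUD1 in parental cells (par) and isoform lines 1 to 12, with bars for the mean and SD of 3 libraries. PDIA4 and MANF are lowest in isoforms 1 and 7, HYOU1 is highest in isoform 5 with a mean of 200.5 TPM, and HSPA5 is lowest in isoform 7 and highest in isoform 10.

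ER-associated degradation genes split. HERPUD1, which helps assemble the ubiquitin ligase complex, was at 49.995, 59.9 and 55.0 TPM in parental cells. In isoform 1 it was at 75.1, 59.8 and 81.4 TPM, called higher by 0.38 (SE 0.10, adjusted p = 0.00249), although replicate 2 lay within the parental range. In isoform 7 it was at 39.4, 44.1 and 42.2 TPM, all below parental (-0.38, adjusted p = 0.00388), and in isoform 9 at 37.2, 44.0 and 47.8 TPM (-0.35, adjusted p = 0.0133), a call lost without parental replicate 2 or isoform 9 replicate 1 (up to 0.0955). EDEM1, which helps hand misfolded glycoproteins to degradation, rose by 0.45 in isoform 1 (8.92, 10.5 and 9.01 TPM against 6.05, 7.29 and 6.59 TPM in parental cells, adjusted p = 0.000112). It rose by 0.36 in isoform 2 and by 0.31 in isoform 8, the latter lost without parental replicate 1 or isoform 8 replicate 2. SYVN1 (HRD1), the ligase itself, fell in isoforms 2 and 4. In isoform 4 it was at 27.2, 23.9 and 26.7 TPM against 31.3, 29.4 and 32.3 TPM, a fall of 0.25 (adjusted p = 0.0172), and in isoform 2 it fell by 0.32. The isoform 4 call was lost without parental replicate 1 or 3 or 1 of its own libraries (up to 0.117). SEL1L, its partner, fell in isoforms 1, 7 and 11, and only isoform 7 (-0.32) held whichever library was left out. DERL1, the most abundant of these genes, was at 82.4, 86.8 and 85.4 TPM in parental cells and fell in isoforms 7 and 8, by 0.14 and 0.16, lost without parental replicate 2 or 3 or isoform 7 replicate 1 or 3 in isoform 7 (up to 0.0937) and without isoform 8 replicate 2 in isoform 8. DERL2 rose by 0.21 in isoform 2 and by 0.15 in isoform 10, where the call (adjusted p = 0.0375) was lost without any 1 of the parental libraries or isoform 10 replicate 1 or 3 (up to 0.117) and with no filter.

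The translocon and export genes gave the most frequent increases. SEC61G, the small gamma subunit of the protein-conducting channel, was at 327.4, 338.7 and 315.9 TPM in parental cells, 530.9, 527.0 and 525.4 TPM in isoform 10 and 492.3, 497.5 and 520.4 TPM in isoform 11. The rise was 0.69 (SE 0.05, adjusted p = 5.15e-13) in isoform 10 and 0.62 (adjusted p = 4.17e-12) in isoform 11. It rose in 11 lines, all but isoform 4, and in 10 of these whichever library was left out; the isoform 6 call was lost without parental replicate 3 or isoform 6 replicate 2 (adjusted p up to 0.0942). The channel's other subunits differed from it. SEC61B rose in isoforms 1, 2 and 10, by 0.13, 0.22 and 0.13. The isoform 1 call was lost without isoform 1 replicate 3 (adjusted p = 0.0915) and the isoform 10 call without parental replicate 2 or 3 or isoform 10 replicate 1 (up to 0.0690). SEC61A1 was called lower in isoforms 1, 2, 7 and 11, by 0.09 to 0.15, with the isoform 2 call lost whichever of the 6 libraries was left out and the isoform 11 call without any but isoform 11 replicate 1 (up to 0.123). After median-of-ratios scaling only the isoform 7 call of SEC61A1 remained, and in isoform 2 its sign turned.

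SEC24D, a cargo-binding subunit of the COPII coat, was at 24.3, 23.9 and 28.0 TPM in parental cells and at 44.7, 40.5 and 47.7 TPM in isoform 10 (0.78, SE 0.08, adjusted p = 1.43e-08). In isoform 2 it was at 40.2, 39.9 and 40.7 TPM (0.65, adjusted p = 1.26e-07) and in isoform 8 at 40.6, 37.0 and 41.0 TPM (0.62, adjusted p = 8.93e-07). It also rose in isoforms 1, 7, 11 and 12, and 6 of these 7 calls held whichever library was left out, the isoform 12 call being lost without parental replicate 2 or isoform 12 replicate 3 (up to 0.102). SEC23B, its partner in the inner coat, rose in isoforms 1, 2, 8 and 10, by 0.15 to 0.27, with isoform 2 alone keeping the call in all such fits. ARF4, a small GTPase of Golgi traffic, was at 198.7, 205.4 and 197.8 TPM in parental cells and at 259.4, 270.0 and 264.7 TPM in isoform 2 (0.40, SE 0.06, adjusted p = 4.15e-06). It rose in isoforms 1, 8, 10, 11 and 12 as well, with the calls in isoforms 8 and 11 lost without parental replicate 1 or 3.

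**Figure D5:**
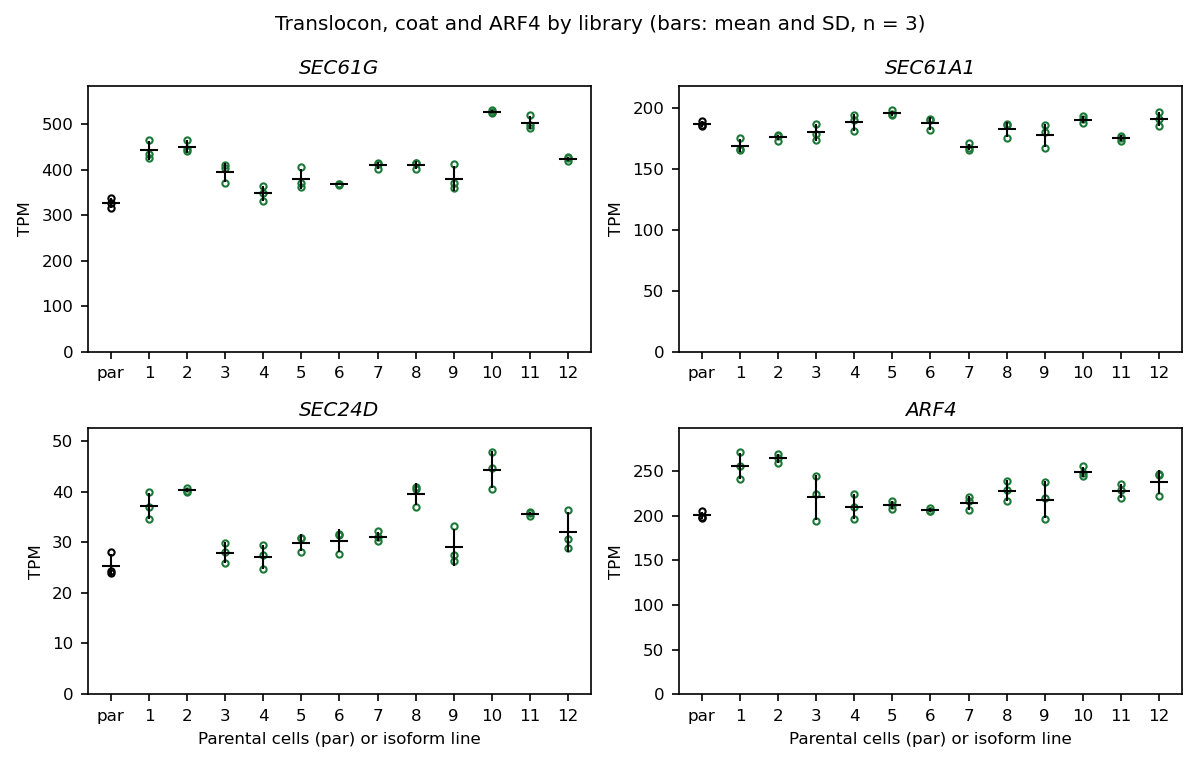
Points give TPM per library (vertical axes from 0) for SEC61G, SEC61A1, SEC24D and ARF4 in parental cells (par) and isoform lines 1 to 12, with bars for the mean and SD of 3 libraries. SEC61G is highest in isoforms 10 and 11 and SEC24D in isoform 10, with a mean of 44.3 TPM against 25.4 TPM in parental cells, while SEC61A1 lies in a narrow range.

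Members with an exact ER stress response element were called in both directions. Of the 10 members with either form, 7 were lower and none higher in isoform 7, and 6 were lower and 3 higher in isoform 1. Over all genes, 26.2% were lower and 13.4% higher in isoform 7, and 38.7% lower and 19.8% higher in isoform 1. In isoform 10 (17% of all genes higher, 20.4% lower), 4 were higher (HSPA5, XBP1, SDF2L1 and CRELD2) and 2 lower (HSP90B1 and PDIA6). Of the 19 searched members without it, 8 were lower and 2 higher in isoform 7, and 7 lower and 5 higher in isoform 1. No test was made of this difference.

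Other genes of the same pathways were followed through separate lists. In the PERK and ATF4 arm, which slows translation and raises amino acid and stress genes, 9 of 11 genes rose and 1 fell in isoform 1, where 19.8% of all genes were higher and 38.7% lower. CHAC1, which degrades glutathione, was at 4.22, 5.16 and 5.12 TPM in parental cells and at 42.5, 13.8 and 48.0 TPM in isoform 1 (2.44, SE 0.24, adjusted p = 5.17e-10). ATF3 was at 21.1, 22.1 and 18.8 TPM in parental cells and at 61.7, 41.4 and 59.9 TPM in isoform 1 (1.33, SE 0.11, adjusted p = 1.85e-11). Isoform 1 replicate 2 was the lowest of its group for CHAC1, ATF3 and HERPUD1. EIF2AK3, the gene of PERK, fell by 0.63. In isoform 2 the list gave 2 higher and 4 lower, shares of 18.2% and 36.4% that lie near the 19.7% and 35.6% of all genes. In isoform 7 it gave 3 and 3, or 27.3% each against 13.4% and 26.2% of all genes. After median-of-ratios scaling the list gave 4 higher and 3 lower in isoform 2 (28.3% and 26.7% of all genes). Isoform 7 gave 4 and 3 as well (21.6% and 20%), and isoform 1 again gave 9 and 1 (30% and 28.1%). In isoforms 4, 5, 6, 10 and 12 at most 1 gene was called before scaling. Of all genes, 16.3%, 14.8%, 10.1%, 37.3% and 14.6% were called in these lines.

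Of 22 further genes of ER folding and translocation, 13 fell and 2 rose in isoform 1, or 59.1% and 9.09% against 38.7% and 19.8% of all genes. In isoform 2, 9 fell and 4 rose, or 40.9% and 18.2%, near the 35.6% and 19.7% of all genes. In isoform 7, 6 fell and 2 rose, and in isoform 11, 6 fell and 1 rose; the 27.3% that fell in each lies near the 26.2% and 24% of all genes. After scaling these counts became 7 lower and 4 higher in isoform 1 (28.1% and 30% of all genes), 6 and 6 in isoform 2 (26.7% and 28.3%), 2 and 3 in isoform 7 (20% and 21.6%), and 4 and 5 in isoform 11 (19.3% and 22.1%). EDEM2, a mannosidase of glycoprotein degradation, rose by 0.65 in isoform 1. Of 8 further COPII genes, 4 rose in isoform 1 and 5 in isoform 2, with none lower (19.8% and 19.7% of all genes rose), and 6 in each after scaling (30% and 28.3% of all genes). SEC23A, the other SEC23 of the coat, rose by 0.81 and 0.76 in these lines, and SEC13, of the outer coat, by 0.53 and 0.38. Among 10 cytosolic and mitochondrial heat shock genes, 7 fell and 2 rose in isoform 1 (38.7% and 19.8% of all genes), and 5 and 2 after scaling (28.1% and 30%). In isoform 2, 6 fell and 2 rose (35.6% and 19.7% of all genes), and 2 and 3 after scaling (26.7% and 28.3%). In isoform 8, 6 rose and none fell on either scale (16.9% and 17.5% of all genes).

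To compare classes of isoform, each line was taken as 1 unit. In the standard nomenclature isoforms 1 to 6 come from promoter P1 and 7 to 12 from P2, and isoforms 4 to 6 differ from 1 to 3 in the N-terminal region; the labels do not state these classes. Isoforms 4 to 6 differed from 1 to 3 in 8 of 33 members (limma on line means, 34.6% of all genes called). HYOU1, PDIA6 and CREB3L2 were higher in isoforms 4 to 6, by 0.43, 0.19 and 0.54. CREB3L3, EDEM1, SEC61G, SEC23B and ARF4 were lower, by -3.75, -0.38, -0.23, -0.16 and -0.23. Between isoforms 7 to 9 and 1 to 3 only CREB3L3 was called, lower by -2.58 (11.6% of all genes called). With 3 lines in a class the counts rest on single lines. The first count was 1 without the isoform 1 or the isoform 5 line, 3 without the isoform 2 or the isoform 4 line and 13 without the isoform 11 line. The CREB3L3 call between isoforms 7 to 9 and 1 to 3 was lost without the isoform 1, 2 or 7 line. It was also lost with no filter. Without the isoform 3 line 3 members were called, and without the isoform 8 line 2.

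No member was called by limma between isoforms 10 to 12 and 7 to 9 (1 at an unadjusted p under 0.05, 0% of all genes called). None was called between isoforms with and without the insertion of the F domain (0 unadjusted, 0%). None was called between the short C-terminal form and the others (5 unadjusted, 0.0133%), although 1 was called there without the isoform 6 line.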

How the data were processed

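Poly(A)-enriched RNA was sequenced with a directional kit, per the labels' protocols. The submitters' processing notes name Trimmomatic 0.36, FastQC 0.11.5, kallisto 0.44.0, DESeq2 1.22.2 and GRCh38.p12, without roles. The authors deposited TPM for each library, and their tables for the lines also hold a mean normalised count (a signal), their log2 fold change and its error, a score, and p-values and adjusted p-values, per the file headers. Each library's TPM summed to 999972.6 to 999987.7, so depth is unknown and no counting interval could be given. The 12 rows named for HNF4A isoforms were summed. For isoforms 4 and 5 the labels repeat 1 name, so their 6 libraries carry no replicate number.

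Linear models were fitted to log2(TPM + 1) with limma 3.58.1 in R 4.3.3 (eBayes with trend), with 39 libraries, 13 group coefficients and 26 residual degrees of freedom. Only genes averaging 1 TPM or more over all libraries were tested. P-values were adjusted by Benjamini-Hochberg over 15003 genes in each comparison, and called below 0.05 at any size. Scripts were tested on simulated data. Classes of isoform used an additive model of 12 line means. Per-library values are given for members past 2-fold, the 3 with the largest change in each line, the most abundant of each role, and HSPA5, XBP1, ATF6, ERN1 and CREB3L3; values of other members and listed genes were chosen after they were seen, except CHAC1 and ATF3, the 2 listed genes with the largest change past both thresholds. Members and lists were chosen with earlier results of these data known. Gene positions come from the GENCODE annotation of GRCh38 and promoter sequences from RefSeq. Alternatives were another pseudocount, other filters, median-of-ratios scaling, no trend, fits of 1 line with the parental cells, a replicate block, leaving out libraries or lines, a minimum fold change and the authors' deposited table.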

Additional observations from a re-analysis of the deposited data

Results flagged for a closer look

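The ER members HSPA5, HYOU1, SDF2L1, CRELD2 and HERPUD1 were flagged for calls in both directions. Each was called higher than parental cells in at least 1 line and lower in at least 1 other. An adjusted p under 0.05 in limma's F test among the 12 lines was also required, so that test adds no separate support. It asks for any difference among the lines, and 77.4% of all genes were called by it. Its adjusted p was 4.49e-09 for HSPA5, 2.72e-13 for HYOU1, 1.77e-07 for SDF2L1, 6.94e-08 for CRELD2 and 2.46e-06 for HERPUD1. HYOU1 was higher in isoform 5 and lower in 7 lines, and HSPA5 higher in isoforms 1 and 10 and lower in isoforms 7 and 9. SDF2L1 was lower in isoform 1, a call lost after median-of-ratios scaling, and HERPUD1 was higher in isoform 1 and lower in isoforms 7 and 9. Some of these calls were lost when 1 library was left out, among them HSPA5 in isoforms 1 and 9 and HERPUD1 in isoform 9. The only higher call of CRELD2, in isoform 10, was lost in the same way.

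Differences between classes of isoform were flagged too, tested on line means with limma and an adjusted p under 0.05. Isoforms 4 to 6 against 1 to 3 gave 8 of 33 members, with 34.6% of all genes called. For 7 to 9 against 1 to 3 the count was 1, with 11.6% of all genes called. Members were thus not called more often than genes at large. The count of 8 fell to 1 without the isoform 1 or the isoform 5 line. Isoforms 4 to 6 minus 1 to 3 gave 0.43 for HYOU1, 0.19 for PDIA6, 0.54 for CREB3L2, -3.75 for CREB3L3, -0.38 for EDEM1, -0.23 for SEC61G, -0.16 for SEC23B and -0.23 for ARF4, all on the log2(TPM + 1) scale. Isoforms 7 to 9 minus 1 to 3 gave -2.58 for CREB3L3. That call was lost with no filter, and without the isoform 1, isoform 2 or isoform 7 line. Groups of 3 libraries were not searched for single outlying samples.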

How the results depend on the processing

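TPM fixes each library's total, so the direction of small changes depends on the scale, and depth could not be assessed. Of 144 called values of a member in a line, 144 kept direction and call with a pseudocount of 0.1, and all 135 that could be fitted did with a filter of 5 TPM. Direction held for all 144 with no filter, with no trend and with parental cells and 1 line only, and 20, 3 and 20 lost the call. Scaling by median-of-ratios lost 17 and turned 1, SEC61A1 in isoform 2 (0.0036). The authors' deposited table lost 29 and turned 5: SEC61A1 in isoforms 1, 2 and 11 (0.0018, 0.0406 and 0.0014), PDIA6 in isoform 2 (0.0018) and CRELD2 in isoform 2 (0.0145). The cause was not tested.

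Requiring a log2 fold change of at least 1 left 1 called member in isoforms 1, 2, 3, 7, 8, 10 and 11 and 0 in the others, by construction. Scaling gave 5 in isoform 5 and 4 in isoform 6. No filter gave 3 in isoform 4, 7 in isoform 8, 3 for isoforms 4 to 6 against 1 to 3 and 0 for 7 to 9 against 1 to 3. Fits of the parental cells and 1 line gave 5, 6 and 3 in isoforms 3, 5 and 9. The authors' deposited table gave 9, 5 and 7 in isoforms 5, 6 and 12. For each of these the cause was not tested.

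Leaving out 1 library gave counts of 20 to 24 in isoform 1, 17 to 21 in isoform 2, 6 to 12 in isoform 3, 2 to 5 in isoform 4, 2 to 3 in isoform 5, 2 to 4 in isoform 6, 19 to 22 in isoform 7, 6 to 9 in isoform 8, 7 to 15 in isoform 9, 11 to 16 in isoform 10, 11 to 16 in isoform 11 and 3 to 5 in isoform 12. Leaving out 1 line gave 1 to 13 members for isoforms 4 to 6 against 1 to 3. For 7 to 9 against 1 to 3 it gave 0 to 3. The short C-terminal form gave 0 to 1 and the other class comparisons 0. Shares of all genes called were not computed for these fits, nor for the other alternatives except scaling and the minimum fold change.

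Deviations of same-numbered line and parental libraries were weakly correlated, from -0.0469 to 0.1868. Of 30 such pairs, 4 were over 0.1, and no line had all 3 over it. By mean correlation with libraries of other groups, 29 of 33 numbered libraries were closest to their own number. Libraries of the same number thus shared part of their deviations, which the main fit did not model. With a replicate block over these 33 libraries, isoform 12 gave 7 called members and the other lines 25, 22, 12, 3, 21, 11, 12, 17 and 17 in the order of isoforms 1, 2, 3, 6, 7, 8, 9, 10 and 11.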
